A study of Homo sapiens with 24 samples.

Results

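The 10 genes described here are MITF, SOX10, PMEL, MLANA, TYRP1, DCT, SOX9, AXL, NGFR and EGFR, which mark the melanocyte lineage and the loss of its traits in melanoma. They were chosen by name, and all 10 had a row among the 20345 genes of the count table, of which 19086 are protein-coding. The cells were A2058, an established human melanoma line. They received a scrambled control siRNA (siCTRL) or an siRNA targeting LSM14A (siLSM14A), which encodes an RNA-binding protein linked to translational repression, and were either not treated (NT) or given hydroxyurea (HU) at 10 mM for 2 h. HU inhibits ribonucleotide reductase and so starves DNA replication of nucleotides. The study asked how LSM14A affects translation under this stress. Each of the 4 conditions had 3 replicates, each with a library of total polyadenylated RNA and a library of polysomal RNA from the heavy fractions of a sucrose gradient. The libraries of both fractions that bear the same replicate number are treated below as 1 culture, 12 in all, though the labels do not say that they share one. All 24 libraries came from this single line, the siRNA conditions differ by a transient transfection, and no protein was measured in these libraries. The labels number the replicates without saying what separates them, so p-values measure the spread between these cultures, which may be partly technical.

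Melanocytes arise from the neural crest under the transcription factors SOX10 and MITF. MITF switches on genes of the melanosome, the organelle in which melanin is made, and the melanosome proteins PMEL, MLANA, TYRP1 and DCT are used as differentiation antigens in pathology. Melanoma cells can move between a melanocytic state with these genes on, a neural crest-like state marked by NGFR, and an undifferentiated state in which SOX10 and MITF are low while AXL, EGFR and SOX9 are high. Shifts along this axis accompany tolerance to drugs. In bulk RNA, a smaller number of cells in a state and less RNA per cell cannot be told apart.

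The libraries held 24789280 to 44897501 counts. LSM14A, the target of the siRNA, averaged 84.3 ± 2.33 CPM, counts scaled to a common library size, in total RNA of siCTRL NT cells and 7.52 ± 0.708 CPM in siLSM14A NT cells (SD, n = 3 each). With HU it averaged 85.9 ± 5.08 and 6.81 ± 0.794 CPM (SD, n = 3 each). The knocked-down libraries thus held less of the target than any control library. Abundance is given below as CPM per kb of exon, which allows genes of different length to be compared, and CPM alone is used to compare conditions for 1 gene. EGFR had too few counts for any test, so 9 of the 10 genes were tested.

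In untreated siCTRL cells the lineage factors were present. SOX10 (ENSG00000100146; chr22:38366693-38383429 in hg19, minus strand), the neural crest factor that maintains glial and melanocyte fates, stood at 119, 125 and 124 CPM per kb in total RNA of the 3 replicates. This mean of 122 ± 3.07 CPM per kb placed it at rank 221 of the 19086 protein-coding genes. MITF (ENSG00000187098; chr3:69788607-70017487, plus strand), the master regulator of pigment genes, stood between 15.9 and 16.2 CPM per kb in the 3 replicates, at rank 2435. Of the 10 genes, MITF had the smallest spread between the 3 replicates relative to its mean of 16.1 ± 0.152 CPM per kb.

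The products of pigment cells fell into 2 tiers. DCT (ENSG00000080166; chr13:95089065-95131936, minus strand), the dopachrome tautomerase of melanin synthesis, stood at 121, 101 and 111 CPM per kb. PMEL (ENSG00000185664; chr12:56347889-56367101, minus strand), which forms the fibrils on which melanin is deposited, stood at 98.9, 85.9 and 98.3 CPM per kb. Both were among the most abundant mRNAs, at ranks 257 and 327. MLANA (ENSG00000120215; chr9:5890889-5910606, plus strand), the melanosome protein also called MART-1, stood between 1.83 and 3.26 CPM per kb in the 3 replicates. TYRP1 (ENSG00000107165; chr9:12685439-12710285, plus strand), a relative of tyrosinase that stabilizes it, stood at 1.11, 1.05 and 1.47 CPM per kb. These are ranks 8114 and 9722, near the middle of the protein-coding genes, and rest on 153 to 331 and 116 to 186 counts per library.

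DCT and TYRP1 are related enzymes that lie in different tiers, so the letters of their promoters are shown here. MITF binds DNA words with the core CATGTG. This word was searched on both strands, so also as CACATG, in the RefSeq promoter windows of GRCh38.p14, which run from 250 bases before a start to 50 bases after it. Windows were held for 6 of the 10 genes, MITF, MLANA, TYRP1, DCT, AXL and EGFR, and SOX10, PMEL, SOX9 and NGFR had no entry. Of all 35116 windows, 11.1% held the word. The matches in TYRP1 and DCT are printed 5′ to 3′ on the strand of the gene, with the word in capitals.
TYRP1, chr9:12693229-12693258, plus strand: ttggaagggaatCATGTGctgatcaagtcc
TYRP1, chr9:12693362-12693391, plus strand: caggcagcaatcCACATGcacttaacagtt
DCT, chr13:94479880-94479909, minus strand: gtttggctggagCACATGagcccagataaa
DCT, chr13:94479799-94479828, minus strand: tgcactttgggtCATGTGctaatgatgagg
In the 1 window of TYRP1 the words began at -144 and -11 from the start on which that window is set. In 1 of the 2 windows of DCT they began at -215 and -134. A match was also present in 1 of the 2 windows of AXL, at -79, and in 1 of the 2 windows of EGFR, at -236. Each position counts from the window's own start, which need not be the outermost start of the gene given above. The 3 windows of MITF and the window of MLANA held no match. For both enzymes 1 window thus held 2 copies of the word, while the mRNA levels were 111 CPM per kb for DCT and 1.21 for TYRP1. Other words were not searched. A match describes letters only and is not evidence of binding in these cells.

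Genes tied to dedifferentiation were just as uneven. AXL (ENSG00000167601; chr19:41725128-41767671, plus strand), a receptor tyrosine kinase of invasive melanoma cells, stood at 31.1, 33.8 and 32.3 CPM per kb, at rank 1167. NGFR (ENSG00000064300; chr17:47572655-47592370, plus strand), the low-affinity neurotrophin receptor of neural crest stem cells, stood at 9.95, 10.2 and 9.29 CPM per kb, at rank 3887. In contrast, SOX9 (ENSG00000125398; chr17:70117161-70122557, plus strand), a factor that opposes SOX10 in undifferentiated melanoma, stood at 0.246, 0.247 and 0.322 CPM per kb, on 27 to 43 counts. EGFR (ENSG00000146648; chr7:55086710-55279321, plus strand), the epidermal growth factor receptor, had 2 counts in replicate 1 and 0 counts in the other replicates. Over all 24 libraries EGFR reached at most 3 counts and was at 0 in 14. A count of 0 allows up to 0.0668 to 0.121 CPM, depending on the library and covering counting error only.

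In this order of levels, the ranges of SOX10 and DCT overlapped, and the replicates of all other neighbours were separate. Of the 10 genes, 8 reached 1 CPM per kb, a level that many genes reach. BIRC3, from a list described below, stood at 1.05 CPM per kb in untreated siCTRL cells, at rank 9952 of the 19086 protein-coding genes. NGFR shares 27.2% of its exon bases with 2 genes on the opposite strand, SOX10 shares 5.4% with POLR2F and PMEL shares 2.4% with CDK2. The library kit kept the strand, but the setting used in counting is not given in the sources used here, so a part of these counts could belong to the partner genes.

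**Figure D1:**
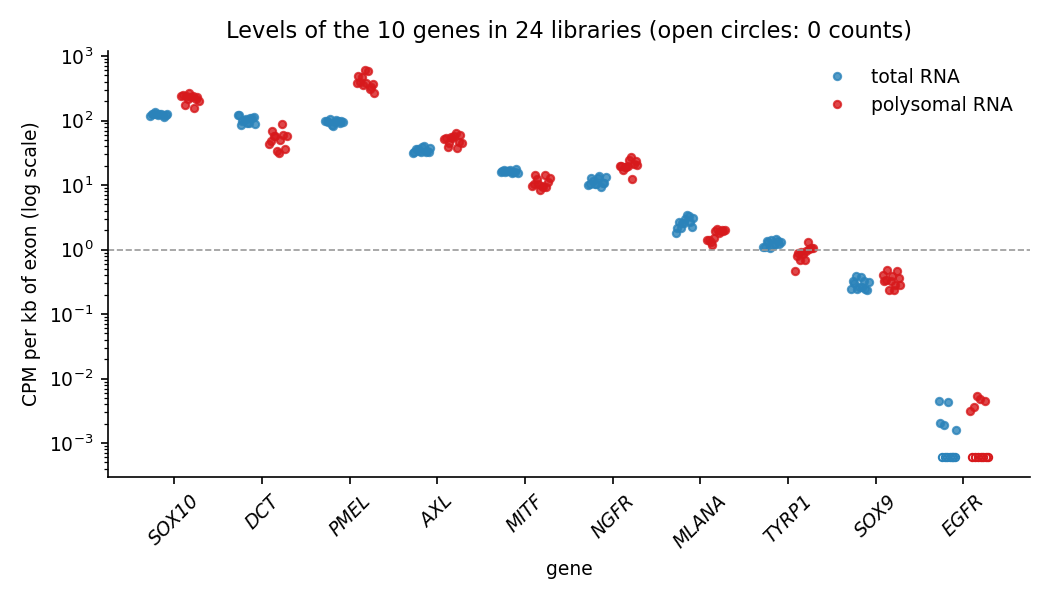
Each point is 1 of 24 libraries, in blue for total RNA and in red for polysomal RNA (12 libraries each), with the level in CPM per kb of exon on a log axis and the genes ordered by their mean in total RNA of siCTRL NT cells. SOX10, DCT and PMEL lie near 100 CPM per kb in total RNA, MLANA and TYRP1 lie close to the dashed line at 1 CPM per kb, and the open circles show the 14 libraries in which EGFR had 0 counts.

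The wider lists gave the same mixed picture. Reaching 1 CPM per kb is common among genes at large. TGFBI, just under it at 0.986 CPM per kb, held rank 10048 of the 19086 protein-coding genes. The levels thus tell more than the counts of genes that reach it. Of 25 further genes of pigmentation and melanocyte differentiation, 17 reached 1 CPM per kb in untreated siCTRL cells. They were led by the calcium-binding protein S100B at 170 ± 5.80 CPM per kb, the melanosome glycoprotein GPNMB at 116 ± 11.7, the kinase CDK2 at 89.3 ± 6.03, which lies next to PMEL, and S100A1 at 48.8 ± 0.759 (SD, n = 3 each). Tyrosinase (TYR), the rate-limiting enzyme of melanin synthesis, stood at 30.2 ± 3.10 CPM per kb, whereas the melanocortin receptor MC1R and the receptor KIT stood at 0.293 ± 0.0479 and 0.139 ± 0.0302. Of 13 neural crest-like genes, 9 reached this level, among them the intermediate filament NES at 47.7 ± 21.5, the nuclear receptor RXRG at 15.7 ± 1.57 and the adhesion molecule L1CAM at 10.1 ± 0.594. The other members fell short of it, with AQP1 at 0.116 ± 0.0391, GFRA3 at 0.00494 ± 0.00856, and GFRA2 and TFAP2B at 0 counts.

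Of 26 undifferentiated and invasive genes, 21 reached 1 CPM per kb. The matrix protein SPARC stood at 923 ± 27.9 and vimentin (VIM) at 454 ± 20.4 CPM per kb, followed by the matrix proteins TNC at 76.4 ± 12.5 and FN1 at 51.9 ± 6.43 (SD, n = 3 each). WNT5A and PDGFRB, which also mark this state, stood at only 0.0372 ± 0.0107 and 0.216 ± 0.0347. Markers of other cells were scarce. Of 5 keratinocyte markers only KRT10 passed 1 CPM per kb, at 25.3 ± 1.53, while KRT1, KRT5 and DSG3 had 0 counts in these 3 libraries. Of 5 fibroblast markers only LUM did, at 14.3 ± 1.58, with COL1A1 at 0.146 ± 0.0271. None of 6 endothelial and blood cell markers did, and their summed level was 0.0359 to 0.0997 CPM per kb across the 12 total RNA libraries, with CD3E and CD68 at 0 in untreated siCTRL cells.

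The largest differences of the 9 genes lay between the RNA fractions, at up to 2.38 on the log2 scale. The polysome ratio, polysomal CPM over total CPM at the same replicate number, tells how far an mRNA is over-represented among transcripts carrying many ribosomes. PMEL stood out. Its total RNA in siCTRL NT cells was 363, 315 and 361 CPM, and its polysomal RNA was 1425, 1308 and 1147 CPM. With HU, the siCTRL cultures held 359, 306 and 338 CPM in total RNA against 1769, 2221 and 1219 CPM in polysomal RNA. In siLSM14A cells the totals were 348, 348 and 355 CPM without HU and 381, 378 and 345 CPM with it, and the polysomal values were 1467, 1392 and 1361 CPM and 1734, 2117 and 968 CPM. The fractions did not overlap in any condition, and over the 12 cultures the ratio ran from 2.80 to 7.25 with a median of 4.07. These ratios rest on the replicate numbers. Only in siLSM14A HU cells did the correlation of the deviations of same-numbered libraries from their group means exceed 0.1 for all 3 numbers. The correlations ran from 0.068 to 0.202 in siCTRL NT, from 0.072 to 0.160 in siCTRL HU and from -0.357 to 0.126 in siLSM14A NT cells.

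In the test of polysomal against total RNA in siCTRL NT cells, PMEL was 1.90 ± 0.12 higher on the log2 scale (SE, edgeR quasi-likelihood adjusted p = 1.2e-04). The differences were 2.38 ± 0.20 in siCTRL HU, 2.03 ± 0.09 in siLSM14A NT and 2.12 ± 0.24 in siLSM14A HU cells. Ordered by this difference, PMEL ranked 29 of 12431, 21 of 12479, 25 of 12528 and 26 of 12377 genes tested. SOX10 and NGFR also rose in polysomal RNA. In SOX10 the log2 differences were 0.72 ± 0.15, 1.01 ± 0.12, 0.77 ± 0.13 and 0.79 ± 0.10 in the same order of conditions. In NGFR they were 0.79 ± 0.17, 0.95 ± 0.10, 0.84 ± 0.16 and 0.79 ± 0.14. AXL rose by less, with differences of 0.56 ± 0.15, 0.64 ± 0.10, 0.55 ± 0.16 and 0.43 ± 0.14. SOX10, NGFR and AXL had a polysome ratio above 1 in 12 of 12 cultures, and whatever the numbering, their polysomal libraries lay above all total RNA libraries in each condition.

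The other pigment genes and MITF lay on the opposite side. DCT differed between polysomal and total RNA by -0.82 ± 0.23, -1.22 ± 0.19, -1.08 ± 0.28 and -0.76 ± 0.09 on the log2 scale, MITF by -0.49 ± 0.15, -0.79 ± 0.11, -0.52 ± 0.15 and -0.44 ± 0.13, and MLANA by -0.66 ± 0.23, -0.48 ± 0.17, -0.56 ± 0.21 and -0.80 ± 0.24. None of these 3 had a ratio above 1 in any of the 12 cultures. TYRP1 had 12 of 12 ratios under 1 as well, at 0.411 to 0.901, and its differences of -0.54 ± 0.18 in siCTRL HU and -0.53 ± 0.18 in siLSM14A HU cells passed the test. In the untreated cells its values of -0.44 ± 0.34 in siCTRL and -0.45 ± 0.20 in siLSM14A did not. The former ran from -0.63 to -0.17 when a replicate was left out, the smallest without replicate 1, whose ratio was 0.411 against 0.886 and 0.901 in the others. SOX9 did not pass in any condition, with values of 0.07 to 0.43 and a ratio above 1 in 7 of 12 cultures. The coding region of MLANA has 354 bases, against a median of 1299 over protein-coding genes and 1983 in PMEL. DCT (1557) and MITF (1578) lie above that median. Whether coding length goes with the ratio was not tested.

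**Figure D2:**
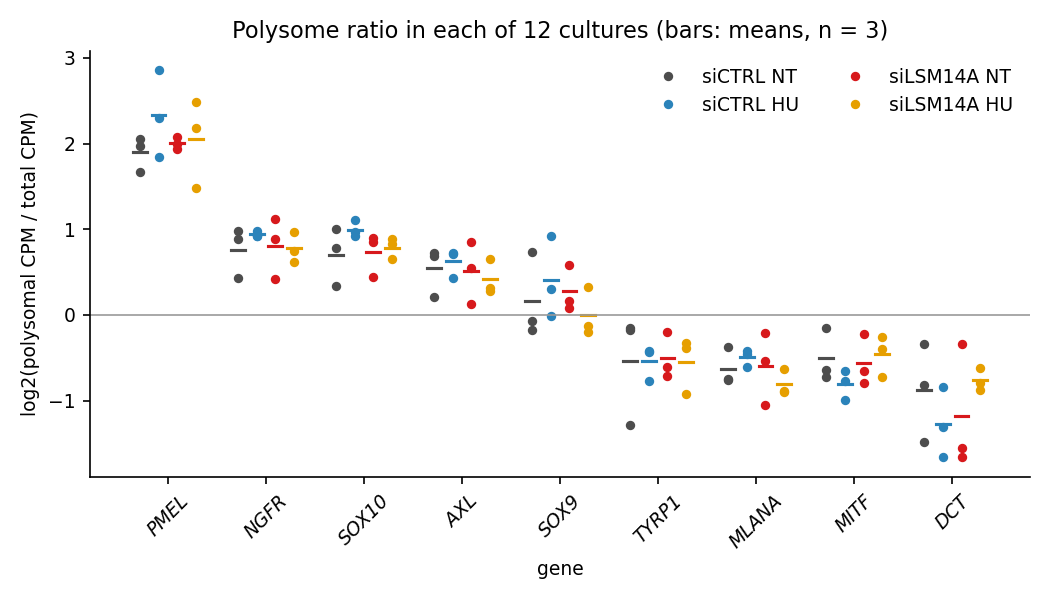
Each point is the log2 of polysomal CPM over total CPM in 1 culture, coloured by condition, with a bar at the mean of 3 cultures. PMEL sits between 1.49 and 2.86 in every culture, SOX10, NGFR and AXL lie above 0, SOX9 spans 0, and TYRP1, MLANA, MITF and DCT lie below 0.

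In siCTRL NT cells, 7 of the 9 genes passed an adjusted p of 0.05 between the fractions, 4 higher and 3 lower in polysomal RNA, where 63.8% of all 12431 genes tested did (31.4% higher and 32.3% lower). The count was 8 of 9 in siCTRL HU (background 73.5%, 36.2% higher and 37.4% lower), 7 of 9 in siLSM14A NT (64.4%, 32.1% and 32.3%) and 8 of 9 in siLSM14A HU cells (66.8%, 32.8% and 34.1%). With so high a background, passing this test is common, and the size of the difference tells more than the count. Single cultures also moved the count. Without replicate 2 of siCTRL NT it was 1 of 9, PMEL, where 29.5% of all genes passed, and without replicate 1 it was 4 of 9 against 46.9%. Without replicate 2 or 3 of siLSM14A NT it was 3 of 9, against 49.7% and 40.8%, and without replicate 1 of siLSM14A HU it was 5 of 9 against 45.8%. The share of all genes thus fell as well. The fractions did not overlap for 6 of the 9 genes in siCTRL NT, where 71.7% of all genes were separate, and for 8 of 9 in siCTRL HU (77.9%), siLSM14A NT (71.3%) and siLSM14A HU cells (73.6%).

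The side on which a gene fell went with the base composition of its exons. Across genes, the difference between polysomal and total RNA had a Spearman correlation of 0.64 to 0.71 with the GC content of the exons, over 12377 to 12528 genes that share the same libraries. The correlation of GC content with a library's deviation from the mean of all 24 libraries was 0.103 to 0.697 in polysomal RNA. It was lowest in siLSM14A NT replicate 1 (0.103) and siCTRL NT replicate 3 (0.107). The DCT ratio was 0.794 and 0.793 there, against 0.316 to 0.566 in the other cultures of both groups. The low-GC genes TYRP1 (38.7%), DCT (39.8%), MITF (40.6%) and MLANA (41.5%) were those under-represented in polysomal RNA, and AXL (54.2%), SOX10 (61.0%) and NGFR (63.6%) were over-represented. PMEL had a GC content of 51.6% and SOX9 of 51.1%, near the median of 48.5% over protein-coding genes. Their median polysome ratios over 12 cultures were 4.07 for PMEL and 1.09 for SOX9. SOX9 rests on only 25 to 65 counts per library, and its ratio ran from 0.872 to 1.90. What sets the ratios of these genes apart was not tested.

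When a smooth curve of expression on GC content was fitted in each library and removed, PMEL remained and most of the others did not. PMEL was then 1.69 ± 0.10, 2.15 ± 0.19, 1.84 ± 0.09 and 1.94 ± 0.22 higher in polysomal RNA in siCTRL NT, siCTRL HU, siLSM14A NT and siLSM14A HU cells (SE, edgeR quasi-likelihood adjusted p = 4.3e-06 to 1.1e-04), at ranks 41, 21, 33 and 24. DCT passed in siCTRL HU cells at -0.45 ± 0.15 (adjusted p = 0.0228) and in siLSM14A NT cells at -0.46 ± 0.17 (adjusted p = 0.0486), and stood at -0.20 ± 0.12 and -0.20 ± 0.09 in the other conditions. SOX10, NGFR and AXL came down to 0.07 to 0.19, and MITF to -0.05 to 0.11. MLANA went from -0.30 to 0.20 and TYRP1 from 0.08 to 0.34, the opposite sign of its uncorrected values. The counts were 1, 2, 2 and 1 of 9 genes, against 54.8%, 57.2%, 55.7% and 58.1% of all genes tested with the same correction. The curve removes any difference that goes with GC content, whatever its source, and which source applies was not tested.

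**Figure D3:**
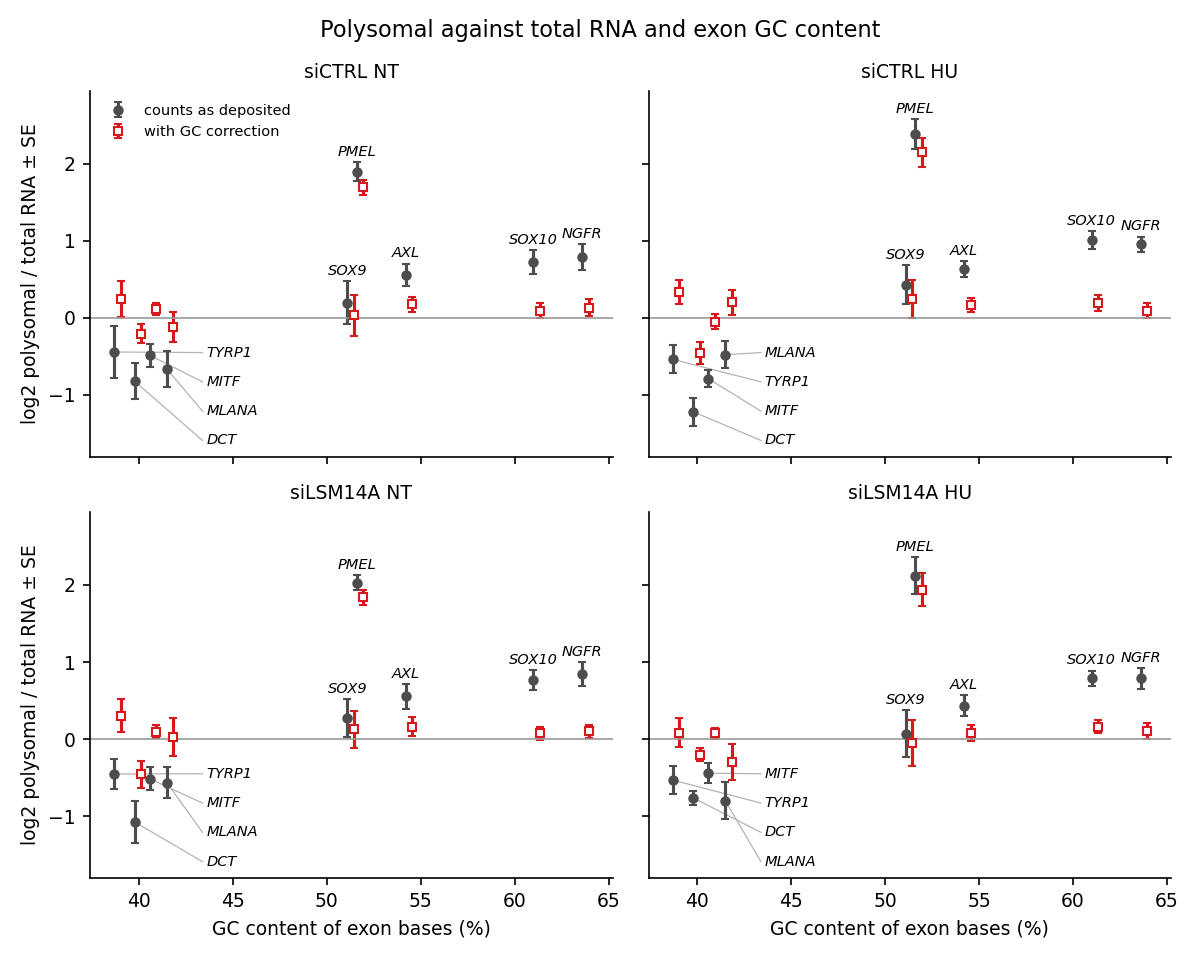
Each panel is 1 condition, with the GC content of exon bases in percent on the x axis and the log2 difference of polysomal and total RNA with its SE (3 cultures) on the y axis, as filled circles for the deposited counts and as open squares, set slightly to the right, after the GC correction. The filled circles climb from the low-GC genes at the left to NGFR at 63.6%, the open squares of most genes lie near 0, and PMEL keeps a difference of 1.69 or more.

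The knockdown of LSM14A left the lineage genes close to their control levels in total RNA. In untreated cells, 0 of the 9 genes passed an adjusted p of 0.05 in edgeR, where 0.566% of 12544 genes did (0.175% higher and 0.391% lower). Of all 12544 genes, 1349 had an unadjusted p under 0.05, and 1 of the 9 did. That gene was NGFR. It stood at 41.2, 42.4 and 38.5 CPM in siCTRL and at 53.6, 54.0 and 45.3 CPM in siLSM14A cells, so that every knockdown culture lay above every control. The log2 change was 0.32 ± 0.08 (SE, adjusted p = 0.127, n = 3). DESeq2, which called 1.49% of all genes, called it at an adjusted p of 0.0192. So did edgeR with the GC correction, which called 119 of 12544 genes, at 0.38 ± 0.06 with an adjusted p of 0.0113. The fit without replicate 3 of siLSM14A NT called it at an adjusted p of 0.0085. Over all alternatives its adjusted p ran from 0.0085 to 1.00.

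With HU, 0 of 9 genes passed in the comparison of siLSM14A with siCTRL (background 0.802% of 12475 genes, 0.24% higher and 0.561% lower). At an unadjusted p under 0.05 there were 3 of 9, namely DCT, AXL and NGFR, against 1065 of all 12475 genes. NGFR stood at 43.0, 42.7 and 44.5 CPM in siCTRL HU and at 47.6, 56.8 and 54.7 CPM in siLSM14A HU cells, a change of 0.28 ± 0.07 (adjusted p = 0.119). AXL stood at 165, 169 and 174 CPM and at 185, 208 and 192 CPM, a change of 0.20 ± 0.06 (adjusted p = 0.23). DCT stood at 910, 801 and 812 CPM in siCTRL HU and at 748, 698 and 665 CPM in siLSM14A HU cells, a change of -0.26 ± 0.06 (adjusted p = 0.0921).

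In each of these 3 genes the HU-treated groups did not overlap, with both receptors higher and the pigment enzyme lower after knockdown. The same held for SOX10, at 610, 588 and 550 CPM in siCTRL HU and at 666, 617 and 612 CPM in siLSM14A HU cells (0.11 ± 0.06, adjusted p = 0.636), and for MITF, which was lower in siLSM14A HU cells (-0.06 ± 0.05, adjusted p = 0.815). In all, 5 of the 9 genes were separate, where 14.9% of all genes were. Libraries with the same replicate number deviated together in this comparison, with correlations of 0.36, 0.19 and 0.31. This pairing was read from the same libraries that were tested and is not stated in the labels, so the p-values with a block may be too small. When the replicate number entered the model as a block, DCT (adjusted p = 2.2e-05), AXL (adjusted p = 0.00125) and NGFR (adjusted p = 5.5e-05) passed in the edgeR test, 3 of 9 against 6.85% of all genes. The same 3 genes passed when the GC correction was added to the block, against 5.78%, with changes of -0.23 ± 0.04 in DCT, 0.18 ± 0.04 in AXL and 0.28 ± 0.05 in NGFR. DESeq2 without a block called 2 of the 9 genes, DCT and NGFR, and 1.52% of all genes. A fit of all 24 libraries together called none.

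In untreated cells the replicate numbers did not pair the libraries, and 2 of the 9 genes were separate between the siRNAs, NGFR and MITF, where 17.3% of all genes were. MITF was higher in siLSM14A NT than in siCTRL NT cells (0.09 ± 0.05, adjusted p = 0.543), the opposite direction to its difference with HU. AXL there stood at 160, 174 and 166 CPM in siCTRL and at 185, 198 and 169 CPM in siLSM14A cells, a change of 0.14 ± 0.07 (adjusted p = 0.478). DCT stood at 912, 760 and 839 CPM and at 653, 683 and 850 CPM, a change of -0.20 ± 0.10 (adjusted p = 0.504). The groups overlapped in both genes, since replicate 3 of siLSM14A NT lay within the range of the controls. The changes of SOX10, PMEL, MITF, MLANA, TYRP1 and SOX9 after knockdown ran from -0.06 to 0.22 over both treatments, with adjusted p of 0.543 or above.

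**Figure D4:**
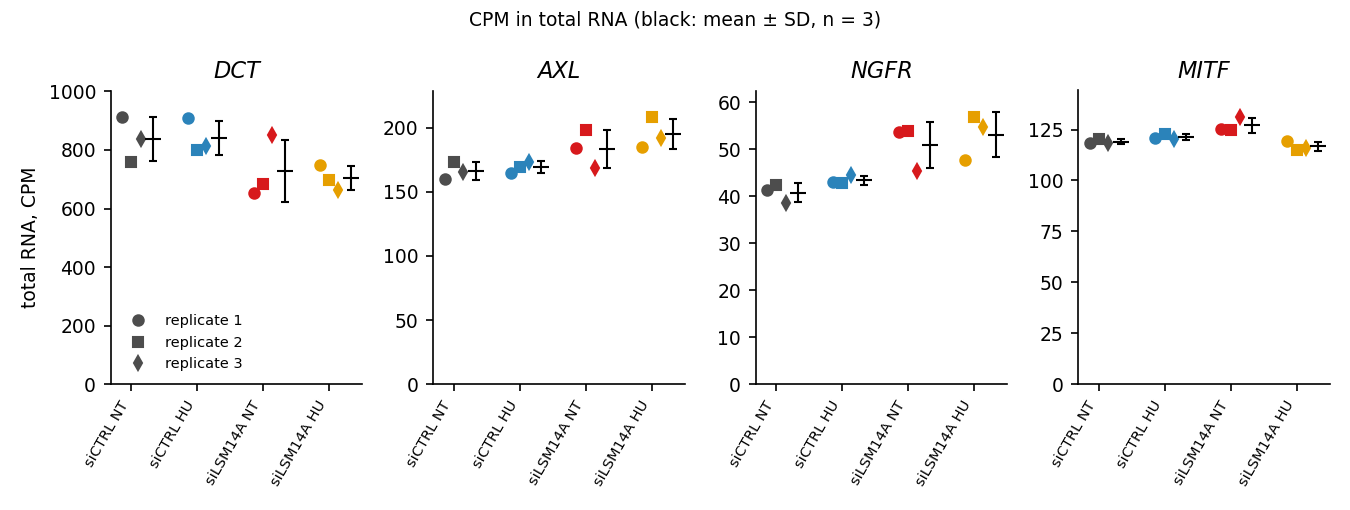
CPM in total RNA of DCT, AXL, NGFR and MITF by condition, with a symbol per replicate number and the mean ± SD of 3 cultures in black, on axes that start at 0. NGFR is higher in every siLSM14A culture than in the siCTRL cultures of the same treatment, DCT and AXL are separate between the siRNAs with HU only, and MITF stays within 115 to 131 CPM, higher after knockdown in untreated cells and lower with HU.

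HU for 2 h changed none of the genes detectably in total RNA. The log2 changes of the 9 genes ran from -0.05 to 0.10 in siCTRL and from -0.13 to 0.11 in siLSM14A cells, and 0 of 9 passed in edgeR or DESeq2, where 0% of 12506 and 0% of 12497 genes passed in edgeR. The replicate numbers paired the siCTRL libraries, and the block left 0 of 9 genes called against 0.12% of all genes. An unadjusted p under 0.05 was found for 180 of 12506 genes in siCTRL cells and 650 of 12497 genes in siLSM14A cells. Of the 9 genes there was 1, MITF in siLSM14A cells. It stood at 125, 125 and 131 CPM in siLSM14A NT and at 119, 115 and 116 CPM in siLSM14A HU, a change of -0.13 ± 0.05 (edgeR unadjusted p = 0.0334, adjusted p = 0.855). In siCTRL cells MITF stood at 118, 120 and 119 CPM without and at 121, 123 and 120 CPM with HU. The treatment groups did not overlap for MITF alone of the 9 genes in siLSM14A cells, where 11.8% of all genes were separate, and for NGFR alone in siCTRL cells (5.3%), with a change of 0.09 ± 0.06. The test of the difference between these responses gave -0.16 ± 0.06 (unadjusted p = 0.0244, adjusted p = 1.00), and the same difference was -0.09 with the GC correction.

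In polysomal RNA and in the polysome ratio no gene of the 9 passed in any comparison of conditions. After knockdown, the changes in polysomal RNA ran from -0.48 to 0.35 (lowest edgeR adjusted p = 0.739), where 0.0162% of 12342 genes passed in NT and 0.0653% of 12256 genes with HU, all of them lower (0% higher). The changes in polysomal RNA with HU ran from -0.40 to 0.42, with 0% of genes passing for either siRNA. None of these changes of polysomal RNA had an unadjusted p under 0.05, where 107 to 611 of all genes tested did in a comparison. DESeq2 called none of the 9 genes. The polysome ratio changed by -0.34 to 0.48 after knockdown and by -0.41 to 0.48 with HU, again with 0% of genes passing in each of the 4 comparisons and none of the 9 called by DESeq2.

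The largest of these ratio changes were seen in DCT, MITF and PMEL. The ratio of MITF was higher in siLSM14A HU than in siCTRL HU cells by 0.37 ± 0.17 and that of DCT by 0.48 ± 0.23, the former at an unadjusted p of 0.0498 and the latter at 0.0557 (edgeR adjusted p = 0.778 for both). The ratio of PMEL was higher in siCTRL HU than in siCTRL NT cells by 0.48 ± 0.25 (adjusted p = 0.956). Without replicate 2 of siCTRL HU the difference of PMEL was 0.20 and that of DCT 0.31, and with each replicate of the groups compared left out in turn they ran from 0.20 to 0.68 and from 0.31 to 0.71. That of MITF ran from 0.25 to 0.49, the lowest without replicate 3 of siLSM14A HU. With the GC correction the differences of MITF and DCT were 0.13 and 0.25, and that of PMEL was 0.45. The difference of the HU responses between the siRNAs was not called for any gene in total RNA, polysomal RNA or the polysome ratio, where 0% of genes passed in all 3 tests. In the ratio it reached 0.75 for DCT, with an adjusted p of 0.896. The SEs of the ratio changes were larger than those of total RNA for each of these genes, so changes of the size seen in DCT, AXL and NGFR in total RNA could not be detected there.

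**Figure D5:**
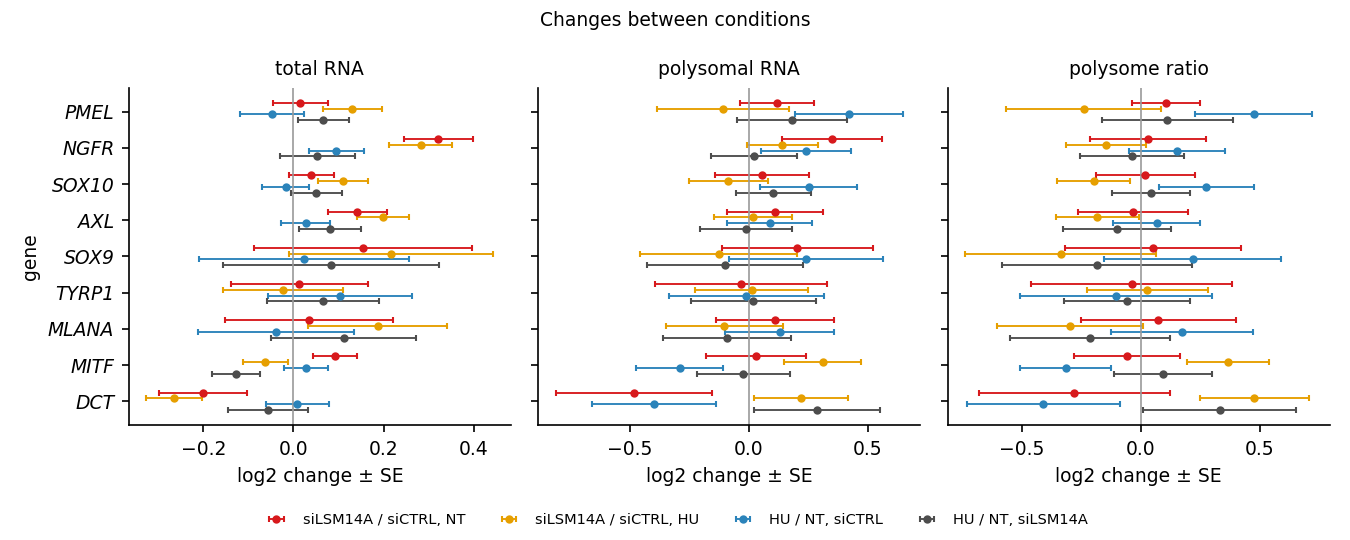
Log2 changes with their SE (3 cultures a group) of the 9 tested genes in total RNA, polysomal RNA and the polysome ratio, coloured by comparison. In total RNA, NGFR and DCT lie farthest from 0 in both knockdown comparisons, at 0.28 to 0.32 and -0.26 to -0.20, and the error bars of polysomal RNA and of the ratio are wider on an x axis that also covers a wider range.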

How the data were processed

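The 4 conditions had 3 replicates, each sequenced as total and polysomal RNA. After trimming, the authors mapped reads with STAR 2.6.1a to hg19, and they deposited whole-number counts per Ensembl gene without normalization. Symbols, exon lengths and GC content came from a Gencode annotation of hg19, in which 19637 of the 20345 IDs were found. The setting for strand in counting is not given in the sources used here. All columns were used.

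Protein-coding genes were kept by filterByExpr (minimum count 10, minimum total count 15) and tested in edgeR 4.0.16 (R 4.3.3) with TMM normalization, the quasi-likelihood F-test and Benjamini-Hochberg adjustment over all genes tested, at an adjusted p under 0.05. Each fit used only the libraries compared, 6 for a pair of groups and 12 for the polysome ratio, for which the test was the fraction-by-condition interaction. The difference of the HU responses used 12 libraries in 1 fraction and 24 for the ratio. SEs were taken as the log2 change over the square root of F. For the GC correction, a loess curve (span 0.3) of log2 CPM on exonic GC content entered each library as offsets. Levels used TMM factors over all 24 libraries and merged exon length. With 24789280 to 44897501 counts per library, SOX9 and EGFR are limited by counting error. Replicates were checked before use, and over 24 pairs the chi-square per gene was 6.10 to 122, so that none agreed within sampling noise. Replicate numbers were taken to pair libraries where all 3 correlations of deviations exceeded 0.1. This held in total RNA for siLSM14A HU with siCTRL HU and for siCTRL HU with siCTRL NT (0.29, 0.31 and 0.22), in polysomal RNA for siCTRL HU with siCTRL NT (0.29, 0.24 and 0.52), and between the fractions of siLSM14A HU (0.21, 0.20 and 0.29). The fits were tested on simulated data.

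The genes and lists were chosen with earlier results of these data known. Named genes are the 10 genes, LSM14A, the 4 most abundant genes of each list, and up to 3 list genes per direction with the smallest p in a comparison. Not every gene chosen in this way is reported here. TYR, MC1R, KIT, AQP1, GFRA2, GFRA3, TFAP2B, WNT5A and PDGFRB were chosen after their values were seen. So were the marker genes named at or near 0 and the further genes of the closing section. Alternatives were DESeq2 1.42.0, RLE size factors, all genes, other filters on low counts, the replicate block, the GC correction, both together, a joint fit of all 24 libraries, and leaving out each replicate in turn.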

Additional observations from a re-analysis of the deposited data

How the results depend on the processing

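The levels put 8 of 10 genes at 1 CPM per kb or above with the longest transcript as length, with total counts in place of TMM and without each siCTRL NT replicate (8 to 8). The 0 of 9 genes called stayed at 0 under all alternatives for HU against NT, polysomal RNA, the polysome ratio and the 3 interactions, including the added fits without replicate 3 of siCTRL NT and replicate 1 of siLSM14A NT, chosen after seeing the data for their weak GC trend. In total RNA of untreated cells the knockdown count rose to 1 with DESeq2, with the GC correction and with the replicate block and GC correction. These called 187, 119 and 59 of all 12544 genes. With HU the knockdown count was 2 with DESeq2 (189 of all 12475 genes) and 1 without the filter on low counts (138 of 15558). It was 3 with the replicate block, alone (855 of 12475) or with the GC correction (721 of 12475). With a replicate left out both counts ran from 0 to 1. Between the fractions the count was 1, 2, 2 and 1 with the GC correction, with or without the replicate block, and the block alone changed no call by over 1.5 times. With a replicate left out it ran from 1 to 6 in siCTRL NT, 6 to 7 in siCTRL HU, 3 to 6 in siLSM14A NT and 5 to 8 in siLSM14A HU. No replicate was left out of the 3 interactions, which was not run.

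Signs turned only with the GC correction and, for SOX9, without a replicate. In siCTRL NT the polysomal difference became 0.11 for MITF and 0.25 for TYRP1 (0.11 and 0.23 with the replicate block added). In siCTRL HU it became 0.20 for MLANA and 0.34 for TYRP1 (0.20 and 0.34). In siLSM14A NT it became 0.095 for MITF, 0.024 for MLANA and 0.30 for TYRP1 (0.092, 0.0060 and 0.28). In siLSM14A HU it became 0.078 for MITF, 0.080 for TYRP1 and -0.055 for SOX9 (0.077, 0.069 and -0.090). SOX9 ran from -0.13 to 0.40 in siCTRL NT and from -0.16 to 0.17 in siLSM14A HU with a replicate left out. The cause was not tested.

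Over all genes the knockdown calls in total RNA went from 71 to 187 with DESeq2, 119 with the GC correction, 45 with the block and 13 with all 24 libraries in untreated cells. With HU they went from 100 to 189, 159, 855 and 17. In polysomal RNA, 2 became 8 with DESeq2 and 27 with all libraries, and 8 became 20, 29 and, with the block, 40. Depth limits SOX9 and EGFR, and 3 cultures a group limit the polysome ratio.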

Other observations

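The other pigmentation genes also lay on both sides between the fractions, with and without the GC correction, as did genes at large. Of 24 tested, 10 passed an adjusted p of 0.05 in edgeR in the same direction in all 4 conditions with and without the correction, 6 higher and 4 lower in polysomal RNA, where 29.6% of the 12277 genes tested in all 4 did (16.5% higher and 13.1% lower). The higher ones included TYR, at 0.86 to 0.97 on the log2 scale and 1.34 to 1.57 with the correction, and GPNMB, at 0.82 to 1.00 and 1.27 to 1.53. OCA2, a melanosomal transporter, stood at 1.11 to 1.35 and at 0.86 to 1.08 with the correction, and SLC45A2, another such transporter, at 0.97 to 1.48 and 1.07 to 1.57. Among the lower ones were the transcription factor TFAP2A, at -0.80 to -0.52 and -0.70 to -0.42 with the correction, and the coactivator PPARGC1A, at -1.44 to -0.93 and -0.80 to -0.38. PMEL, TYR and GPNMB thus lay on the higher side, whereas DCT, MLANA and TYRP1 lay on the lower side without the correction. With it, DCT passed in siCTRL HU and siLSM14A NT cells only, and MLANA and TYRP1 passed in no condition.

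In the undifferentiated and invasive list, 9 of the 25 genes tested in all 4 conditions passed in this way, 6 higher and 3 lower, against the same 29.6%. The matrix proteins TNC, at 1.17 to 1.37, and FN1, at 1.13 to 1.19, were higher in polysomal RNA, as were LOXL2, a lysyl oxidase, at 1.56 to 2.05, and SPARC at 0.52 to 0.65. The factor TEAD1, at -2.10 to -1.63, and BIRC3, an inhibitor of apoptosis, at -2.22 to -1.81, were lower. The mRNA of the intermediate filament VIM was higher by 0.67 to 1.05.

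In total RNA of HU-treated cells, 0 of the 26 undifferentiated genes passed between siLSM14A and siCTRL without the replicate block. With the block, whose pairing was read from these same libraries, 9 passed, 8 higher and 1 lower, where 6.85% of all genes did. With the GC correction added 8 passed, 7 higher and 1 lower, where 5.78% did. The higher ones included CCN2 at 0.36 ± 0.05 and CCN1 at 0.29 ± 0.05, secreted proteins induced by YAP, and the receptor MET at 0.27 ± 0.05 (SE, n = 3). IGFBP3 was the lower one, at -0.20 ± 0.05. In the pigmentation list 2 of 24 passed with the block, SLC24A5 at -0.18 ± 0.05 and PAX3 at 0.20 ± 0.06. In untreated cells BIRC3 was the only gene of these lists to pass, at 0.55 ± 0.10 (adjusted p = 0.0499).

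With the replicate numbers as a block, 4 of the 26 undifferentiated genes passed for HU against NT in siCTRL cells, where 0.12% of all genes passed. The pairing was taken from these same libraries and is not stated in the labels. In siCTRL NT cells CCN1 stood at 23.3 ± 20.6, CCN2 at 16.6 ± 11.4 and JUN at 4.34 ± 2.66 CPM per kb (SD, n = 3). JUN rose by 0.90 ± 0.11, CCN1 by 0.78 ± 0.14, CCN2 by 0.63 ± 0.12 and the chemokine CXCL8 by 0.36 ± 0.08 (SE, n = 3, edgeR adjusted p = 3.4e-05 to 0.042). The neural crest-like gene NES fell by 0.25 ± 0.05 (adjusted p = 0.0169). None of these passed without the block, and whether the responses differ between siRNAs was not tested in that fit.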
